A study of Mus musculus with 6 samples.

Results

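The cytosolic sulfotransferases examined here are the 9 genes Sult1a1, Sult1b1, Sult1c2, Sult1d1, Sult1e1, Sult2a1, Sult2b1, Sult3a1 and Sult5a1. They were chosen by name, as members of the family, with earlier results of these data known, and all 9 were found among the 22180 genes measured, each with 1 probe set. Another 12 genes with a Sult symbol were on the array and are described after them. RNA came from liver pieces of 6 male C57BL/6J mice, 1 Affymetrix array per mouse. The 3 HKO mice carried floxed Slug, a transcriptional repressor encoded by Snai2, together with albumin-CreERT2, in which the albumin promoter drives a Cre enzyme in hepatocytes that tamoxifen activates. The 3 Con mice were littermates with the genotype Slug f/f, and the labels do not say whether Con mice had the transgene or received tamoxifen. All 6 mice ate a high fat diet (60% fat by calories) for 11 weeks, starting when they were 8 weeks old.

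Cytosolic sulfotransferases move a sulfonate group from the donor PAPS onto small molecules with a hydroxyl or amino group. The product is more water soluble and is usually less active and easier to excrete. The SULT1 enzymes act mainly on phenols, including thyroid hormones, catecholamines, estrogens and drugs, and the SULT2 enzymes act mainly on the hydroxyl groups of steroids, sterols and bile acids. In liver they form 1 arm of phase II metabolism beside glucuronidation and glutathione conjugation, and several of them differ in level between male and female mice. The values here come from whole liver pieces, in which fewer cells of a type and less RNA per cell cannot be told apart.

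Slug binds the E-box CAGGTG, so the 250 bases before annotated transcript starts were searched for it on both strands, together with the nuclear receptor hexamer AGGTCA and the STAT element TTCNNNGAA. Windows were found for 8 of the 9 genes (10 windows, since Sult1b1 and Sult2b1 have more than 1 annotated start), from RefSeq on GRCm38.p6; Sult2a1 had no entry. The start used can lie inside the gene's full annotated span, as it does for Sult1a1 and Sult3a1. CAGGTG was in 3 of the 10 windows, 1 each of Sult1c2, Sult2b1 and Sult3a1, and in 17.2% of 32851 windows of all genes. These 3 stretches are shown because they hold the letters that Slug recognises, with the E-box in capitals, read on the strand of the gene. A match describes letters only.
Sult1c2, chr17:53846132-53846161, minus strand: atagtggggagtCAGGTGgtcttagaatgg
Sult2b1, chr7:45742559-45742588, minus strand: cgttggcgggggCACCTGccacctttggct
Sult3a1, chr10:33857699-33857721, plus strand: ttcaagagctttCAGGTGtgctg
The E-box began 191 bases before the start in Sult1c2, 98 before the second annotated start of Sult2b1 and 11 before the start used for Sult3a1. Neither window of Sult1b1, the gene of the 9 with the largest difference between groups, held it. Both windows of Sult1b1 follow with those of Sult1d1 and Sult1e1, its next neighbours on chromosome 5, because these 3 genes lie side by side. Windows of Sult2a8, the family's other gene with separate groups, close the set. Capitals mark AGGTCA or its complement TGACCT, which was in 14.0% of all windows.
Sult1b1 first start, chr5:87538196-87538445, minus strand: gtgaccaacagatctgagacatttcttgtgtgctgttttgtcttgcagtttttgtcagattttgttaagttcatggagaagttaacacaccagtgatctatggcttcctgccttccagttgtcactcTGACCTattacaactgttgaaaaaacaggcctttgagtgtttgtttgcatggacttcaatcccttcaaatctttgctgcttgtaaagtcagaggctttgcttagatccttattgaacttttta
Sult1b1 second start, chr5:87536223-87536472, minus strand: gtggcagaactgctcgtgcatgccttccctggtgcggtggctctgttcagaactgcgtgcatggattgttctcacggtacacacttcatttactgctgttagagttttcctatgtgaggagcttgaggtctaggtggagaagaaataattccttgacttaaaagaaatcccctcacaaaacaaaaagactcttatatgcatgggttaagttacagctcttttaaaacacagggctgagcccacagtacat
Sult1d1, chr5:87569007-87569256, minus strand: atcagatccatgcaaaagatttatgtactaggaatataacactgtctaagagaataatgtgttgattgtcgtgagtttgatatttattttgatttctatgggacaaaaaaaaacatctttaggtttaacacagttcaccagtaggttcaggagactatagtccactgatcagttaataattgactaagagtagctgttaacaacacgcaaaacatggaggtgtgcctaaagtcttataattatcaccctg
Sult1e1, chr5:87591612-87591861, minus strand: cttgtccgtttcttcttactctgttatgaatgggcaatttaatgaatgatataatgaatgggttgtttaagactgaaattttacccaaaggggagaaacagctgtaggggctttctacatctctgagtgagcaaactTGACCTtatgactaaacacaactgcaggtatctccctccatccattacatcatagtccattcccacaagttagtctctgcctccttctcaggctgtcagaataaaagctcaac
Sult2a8 first start, chr7:14446588-14446837, minus strand: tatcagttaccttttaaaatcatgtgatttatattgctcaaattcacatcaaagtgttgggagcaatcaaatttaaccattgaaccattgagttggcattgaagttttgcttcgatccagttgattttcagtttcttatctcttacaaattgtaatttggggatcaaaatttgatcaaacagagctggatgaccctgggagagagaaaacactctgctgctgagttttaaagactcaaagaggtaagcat
Sult2a8 second start, chr7:14438552-14438801, minus strand: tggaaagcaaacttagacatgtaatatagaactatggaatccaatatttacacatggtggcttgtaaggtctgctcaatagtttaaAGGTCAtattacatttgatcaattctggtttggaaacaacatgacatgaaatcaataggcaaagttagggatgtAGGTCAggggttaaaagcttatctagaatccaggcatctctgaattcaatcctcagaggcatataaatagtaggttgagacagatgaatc
The hexamer began 123 bases before the first start of Sult1b1 and 113 bases before the start of Sult1e1, and 2 copies lay before the second start of Sult2a8. The window of Sult1d1 had none of the 3 motifs. TTCNNNGAA was in the window of Sult3a1 alone among the 8 genes, and in 7.02% of all windows.

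Values below are log2 values as deposited, after RMA, which removes background, equalises the arrays' distributions and gives each probe set a single value. The median over genes was 3.95 on each of the 6 arrays, and a group mean at or below it is not shown to be above background. Levels of different genes come from different probes and are not ranked against each other. Correlations between arrays over all genes were 0.989 to 0.992 within groups and 0.986 to 0.988 across groups. Snai2 itself held 4.62, 5.23 and 5.69 in HKO, against 7.74, 7.69 and 7.39 in Con (log2 change -2.43 ± 0.25 SE, limma adjusted p = 0.0145). The hepatocyte list, led by Alb and Apoa1, had mean levels of 10.39 to 10.50 in HKO and 10.32 on each Con array, so the labelled tissue carries its markers.

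None of the 9 sulfotransferases passed adjusted p 0.05 in limma, in which p-values were adjusted over all 22180 genes; over all genes 45, or 0.203%, passed. At an unadjusted p under 0.05 there was 1 of the 9, Sult1b1, where 11.9% of all genes reached that level and 5.31% did so with higher values in HKO. Sult1b1 was also the 1 gene of the 9 whose groups did not overlap, with HKO above Con. Among all genes 18.2% had separate groups, 8.05% with HKO above. Mean values were higher in HKO for 7 genes and lower for Sult1e1 and Sult2b1, where 10696 of all 22180 genes had higher means in HKO. The median log2 change of the 9 was 0.11, beside -0.01 over all genes, and the median size of change without sign was 0.12 in the 9 and 0.12 over all genes. By these shares and medians of single genes the 9 stood close to the array as a whole. Their mean level, to which Sult1b1 contributes, was nevertheless separate. It was 4.823 to 4.905 in HKO and 4.645 to 4.816 in Con.

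**Figure D1:**
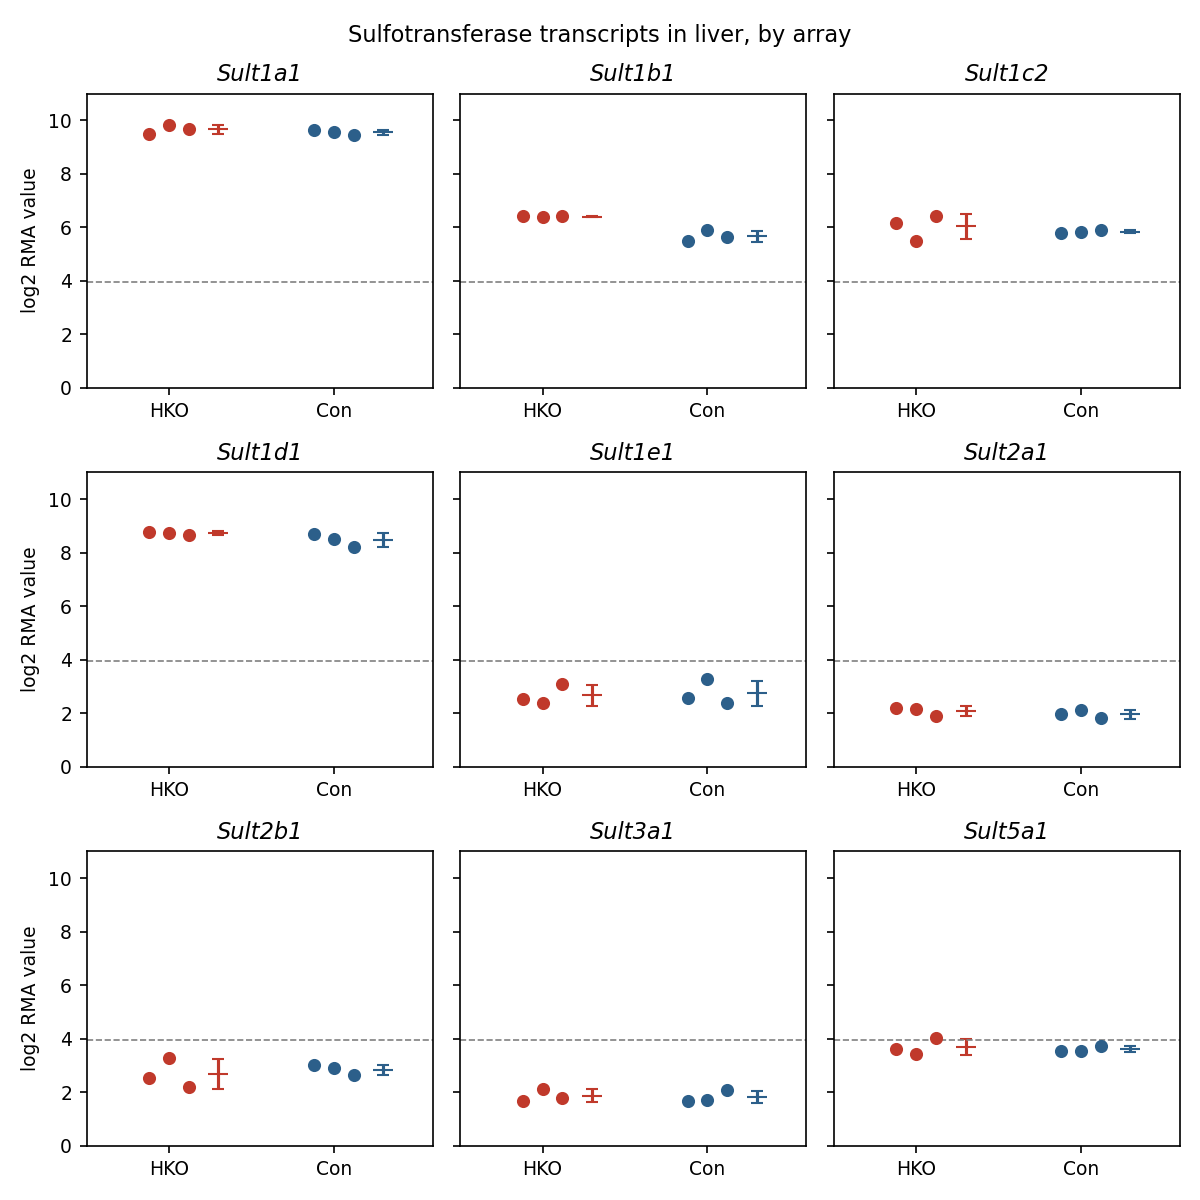
Log2 RMA values (vertical axis) of the 9 sulfotransferases in 3 HKO (red, left) and 3 Con (blue, right) livers, 1 point per array, with mean and SD beside them; the dashed line is the median over genes. Sult1b1 is the gene whose HKO points all lie above its Con points, and Sult1e1, Sult2a1, Sult2b1 and Sult3a1 lie below the line on all 6 arrays.

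Sult1b1 sulfates thyroid hormones and small phenols. Its log2 values were 6.42, 6.37 and 6.41 in HKO, against 5.47, 5.89 and 5.64 in Con. The 3 HKO livers sat within 0.06 of each other while the Con livers spread over 0.42, and the lowest HKO value was 0.48 above the highest Con value. The means were 6.40 ± 0.03 in HKO and 5.67 ± 0.21 in Con (SD, n = 3 each), a log2 change of 0.73 ± 0.12 (SE; 95% interval 0.45 to 1.02) or 1.66-fold, with an unadjusted p of 0.00033 and an adjusted p of 0.0835 in limma. Of all genes, 1.07% had a larger change in size. An exact permutation test of this difference (two-sided) gave p = 0.1, its lowest possible value with 3 arrays a group. The adjusted p was 0.0189 with a variance trend and 0.0354 when genes with a mean at or below the median were left out, and it was between 0.149 and 0.225 without any 1 of the 6 arrays, with the change between 0.64 and 0.84.

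Sult1d1, the next gene along chromosome 5, sulfates dopamine and other catechols in mice. It held 8.79, 8.75 and 8.65 in HKO, against 8.69, 8.53 and 8.21 in Con. Con replicate 1 lay inside the HKO range, so the groups overlapped although the HKO mean was higher. The log2 change was 0.26 ± 0.14 (SE; 95% interval -0.06 to 0.57, adjusted p = 0.523). Sult1e1, the estrogen sulfotransferase, is the third gene of the block. It held 2.52, 2.37 and 3.10 in HKO, against 2.58, 3.26 and 2.38 in Con, below the median over genes on all 6 arrays. Its log2 change of -0.08 lay in a 95% interval from -0.67 to 0.51, and the sign of any change within it was not settled.

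The neighbours of this block were measured as well. Among the 5 protein-coding genes on each side in RefSeq order, 8 were in the table and 0 passed adjusted p 0.05. Ugt2a3, a UDP-glucuronosyltransferase on the Sult1b1 side, held 9.13, 8.86 and 9.06 in HKO, against 8.46, 8.61 and 8.57 in Con. Its log2 change was 0.47 ± 0.11 (SE, limma adjusted p = 0.179). It was named after its values were seen, as the 1 neighbour of 8 with separate groups, where 18.2% of all genes had them. The casein genes on the Sult1e1 side, which encode milk proteins, had group means between 1.78 and 2.74, below the median over genes.

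Sult1a1, the main phenol sulfotransferase of liver, held 9.49, 9.81 and 9.67 in HKO, against 9.62, 9.57 and 9.44 in Con. The groups overlapped, and the lowest HKO value lay below 2 of the Con values. The log2 change was 0.11 ± 0.12 (SE), with a 95% interval from -0.16 to 0.38.

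Sult1c2, another SULT1 gene, was the most scattered of the bright members within HKO. It held 6.16, 5.50 and 6.42 in HKO, against 5.79, 5.83 and 5.90 in Con. HKO replicate 2 was below every Con array and the other HKO arrays were above every Con array, a range of 0.92 in HKO beside 0.11 in Con. The log2 change was 0.19 ± 0.21 (SE; adjusted p = 0.784), and it was -0.00759 without HKO replicate 3 and 0.45 without HKO replicate 2.

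The SULT2 members and the remaining genes were dim. Sult2a1, which sulfates dehydroepiandrosterone and bile acids and is known to be higher in female than in male mouse liver, held 2.20, 2.17 and 1.89 in HKO, against 1.96, 2.13 and 1.80 in Con. Sult3a1, an amine sulfotransferase also known as higher in female liver, held 1.67, 2.13 and 1.79 in HKO, against 1.66, 1.70 and 2.07 in Con. All these values were below the median over genes, and neither gene is shown to be above background in these male livers. Sult2b1, which sulfates cholesterol and is best known from skin, held 2.52, 3.29 and 2.21 in HKO, against 3.001, 2.89 and 2.63 in Con. The HKO arrays bracketed the Con arrays. Sult5a1 held 3.63, 3.44 and 4.01 in HKO, against 3.53, 3.54 and 3.73 in Con, and HKO replicate 3 was its 1 array above the median over genes. Log2 changes of these 4 genes lay between -0.16 and 0.12, with limma adjusted p between 0.78 and 0.936.

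**Figure D2:**
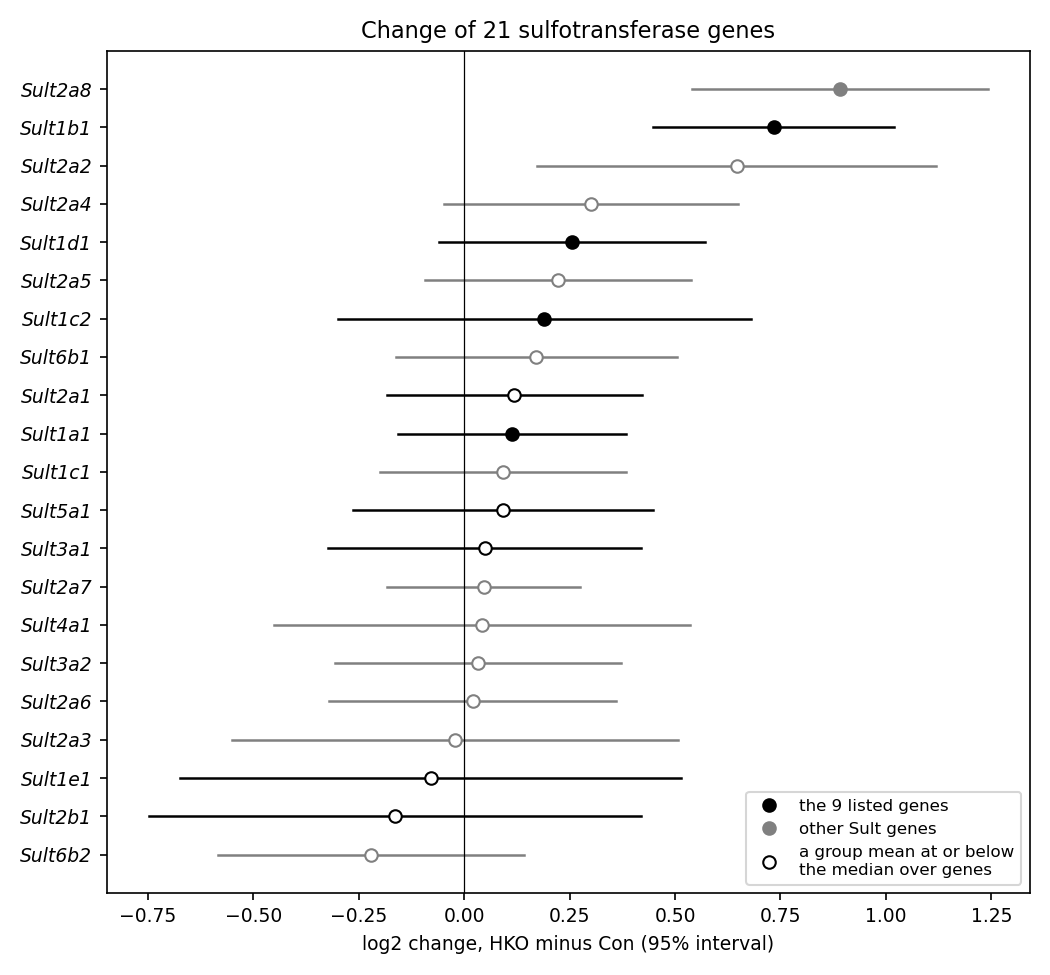
Log2 change, HKO minus Con (horizontal axis), of all 21 Sult genes with 95% intervals from limma; black marks the 9 listed genes, grey the other 12, and open circles have a group mean at or below the median over genes. The intervals of Sult2a8 (0.54 to 1.24), Sult1b1 (0.45 to 1.02) and the dim Sult2a2 (0.17 to 1.12) lie above 0.

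Of the other 12 Sult genes, 0 passed adjusted p 0.05, and their median log2 change was 0.07. The mean level of these 12 was also separate, at 3.016 to 3.097 in HKO and 2.811 to 2.962 in Con. The bright one was Sult2a8, which sulfates bile acids in mouse liver. It held 10.30, 10.28 and 10.37 in HKO, against 9.28, 9.22 and 9.77 in Con. All HKO livers were above all Con livers and close together, while Con replicate 3 stood nearer to HKO than the other Con livers did. The means were 10.32 ± 0.05 in HKO and 9.43 ± 0.30 in Con (SD, n = 3 each), a log2 change of 0.89 ± 0.15 (SE) or 1.85-fold, with an adjusted p of 0.0837. Without Con replicate 3 the change was 1.06 and the adjusted p 0.0297, and without any other array the adjusted p was between 0.185 and 0.27. With a variance trend it was 0.00953.

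The other Sult2a genes share the chromosome 7 block with Sult2a8 and resemble each other, so their probes can take signal from near copies. Sult2a2 held 2.15, 2.74 and 2.44 in HKO, against 1.75, 1.47 and 2.17 in Con, with 1 overlapping pair of arrays and a log2 change of 0.65 ± 0.21 (SE, adjusted p = 0.293). Its values were below the median over genes, as were those of Sult2a3 (log2 change -0.02), Sult2a4 (0.30), Sult2a5 (0.22), Sult2a6 (0.02) and Sult2a7 (0.05). Next to that block, 9 other genes were measured and 0 passed. Obox2, a homeobox gene chosen after its values were seen, was the 1 with separate groups, beside 18.2% of all genes. Its HKO arrays lay below its Con arrays (log2 change -0.47, limma adjusted p = 0.264), at means below the median over genes. Sult1c1 (log2 change 0.09), Sult3a2 (0.03), Sult4a1 (0.04), Sult6b1 (0.17) and Sult6b2 (-0.22) were also dim, with overlapping groups.

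Sulfotransferases depend on the supply of PAPS. Of 15 listed genes of sulfate uptake, PAPS synthesis and cysteine breakdown, 14 were measured and 0 passed adjusted p 0.05, with a median log2 change of 0.01. Groups were separate for 6 of the 14, 5 with HKO above and 1 with HKO below, where 18.2% of all genes were separate and 8.05% had HKO above. Papss2, a synthase that makes PAPS, held 10.09, 10.26 and 10.49 in HKO, against 9.69, 9.75 and 9.79 in Con. All HKO livers were above all Con livers (log2 change 0.54 ± 0.12 SE, adjusted p = 0.169). Slc26a1, a sulfate anion exchanger of the hepatocyte membrane, held 8.75, 8.61 and 8.69 in HKO, against 8.46, 8.35 and 8.43 in Con, again without overlap (0.27 ± 0.10, adjusted p = 0.353).

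Enzymes that remove sulfate or add it elsewhere gave no gene past the threshold either. Sulfatases and their activators had a median log2 change of -0.11 over 13 measured genes, 10 of them with lower means in HKO. Arsa, the lysosomal arylsulfatase A, held 7.03, 6.84 and 6.82 in HKO, against 7.18, 7.32 and 7.37 in Con (log2 change -0.39 ± 0.11 SE, adjusted p = 0.243). Sumf2, a relative of the sulfatase-modifying factor, was at -0.29 (adjusted p = 0.376). The Golgi sulfotransferases, which modify proteins and glycosaminoglycans and are separate from the cytosolic family, had a median of -0.01 over 25 genes. Among them Hs2st1, a heparan sulfate sulfotransferase, was at -0.51 ± 0.12 (SE, adjusted p = 0.179), and Tpst1, which sulfates tyrosines of secreted proteins, at 0.42 ± 0.14 (adjusted p = 0.3).

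Other conjugation enzymes were measured for comparison. UDP-glucuronosyltransferases and Ugdh, which makes their sugar donor, had a median log2 change of 0.01 over 11 measured genes with 0 past the threshold; Ugt2a3 is given above and Ugdh was at -0.36 (adjusted p = 0.333). Glutathione S-transferases had a median of -0.10 over 19 genes, 0 past the threshold, with Mgst3 at -0.35 (adjusted p = 0.278) and Gstm2 at -0.64 (0.344). Methyl, acetyl and amino acid transferases had a median of -0.05 over 11 genes, 0 past the threshold, with the glycine methyltransferase Gnmt at 0.35 (0.266) and the histamine methyltransferase Hnmt at -0.26 (0.455). The list medians of these enzymes and of the sulfotransferases all lay between -0.11 and 0.11.

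**Figure D3:**
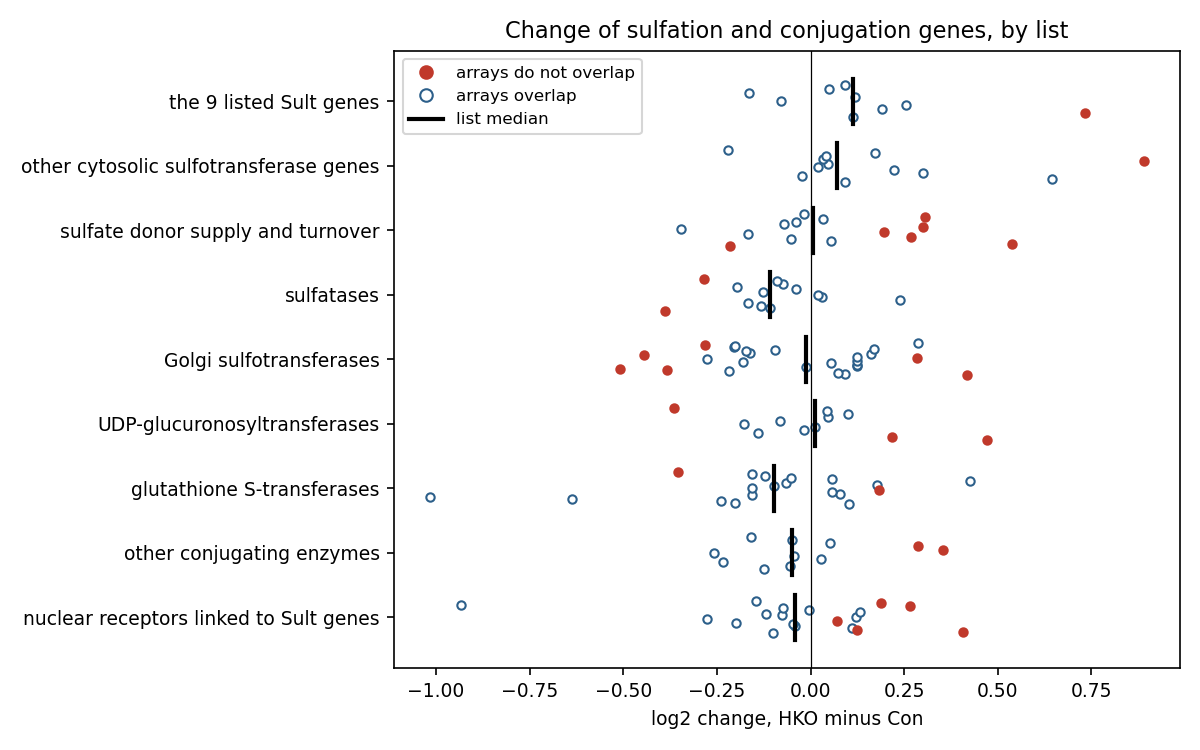
Log2 change, HKO minus Con (horizontal axis), of each measured gene in the sulfation, conjugation and receptor lists (rows); filled red points have HKO and Con arrays that do not overlap, and black bars are list medians. Medians run from -0.11 for sulfatases to 0.11 for the 9 sulfotransferases, and the separate points furthest to the right are Sult2a8 and Sult1b1.

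Nuclear receptors and liver transcription factors known to act on Sult genes had 0 of 19 measured genes past the threshold and a median log2 change of -0.04. Nr1i3, the drug-sensing receptor CAR, held 9.61, 9.36 and 9.60 in HKO, against 9.10, 9.13 and 9.12 in Con. The groups were separate (log2 change 0.41 ± 0.11 SE, adjusted p = 0.22), as were those of its dimer partner Rxra (0.27 ± 0.10, adjusted p = 0.341). In this list 5 of 19 genes had separate groups, all with HKO above. Among all genes 18.2% had separate groups, 8.05% with HKO above. Of 19 genes that make, modify or carry bile acids, steroids and thyroid hormones, the substrates of these enzymes, 0 passed and 7 had separate groups, beside 18.2% of all genes. Cyp7a1, the rate-limiting enzyme of bile acid synthesis, held 9.17, 9.29 and 9.33 in HKO, against 8.20, 8.10 and 7.32 in Con (log2 change 1.39 ± 0.22 SE, adjusted p = 0.0649). Cyp7b1, an oxysterol hydroxylase of the same pathway, was at 0.74 ± 0.14 (adjusted p = 0.104). Changes of the 19 genes ran from -0.28 to 3.47. Cyp7b1 and Hsd3b5 of this list are also among the male-biased genes below.

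Because several Sult genes differ between the sexes, lists of sex-biased liver genes are given beside them. Genes known to be higher in male liver had a median log2 change of 0.78 over 15 measured genes, with means higher in HKO for 14 and lower for 1. Groups were separate for 6, all with HKO above, beside 18.2% of all genes. In limma 2 of the 15 passed adjusted p 0.05, beside 0.203% of all genes. They were the organic anion transporter Slco1a1 (3.41, adjusted p = 0.0145) and Susd4 (1.35, adjusted p = 0.0344), both higher in HKO. The mean level of this list was 7.65 to 8.26 in HKO and 6.59 to 7.28 in Con. Genes known to be higher in female liver had a median of 0.03 over 15 genes, with means higher in HKO for 8 and lower for 7. The median size of change without sign was 0.58, beside 0.12 over all genes. Groups were separate for 8, 3 with HKO above and 5 below, beside 18.2% of all genes. The mean level of this list was 5.08 to 5.44 in HKO and 5.57 to 5.70 in Con. The cytochrome P450 Cyp2b13 was lower in HKO (-3.32, limma adjusted p = 0.0145). The part of the changes of both lists in the Sult1b1 and Sult2a8 values was not tested.

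Genes of like pattern were searched only among those with a mean over the 6 arrays above the median over genes. The 3 whose array values lay closest to those of Sult1b1, after each gene's mean was subtracted, were Sorbs3, Slc27a1 and Oasl1. Their root mean square differences were 0.0707, 0.119 and 0.119 log2 units. Sorbs3, an adaptor protein of cell adhesions, held 7.75, 7.71 and 7.84 in HKO, against 6.83, 7.11 and 6.87 in Con, and rose (log2 change 0.83 ± 0.11 SE, limma adjusted p = 0.043). Slc27a1, a fatty acid transport protein, was at 0.63 and Oasl1, an interferon-induced gene, at 0.51. All 3 were picked for their likeness to Sult1b1, so their shared direction follows from the choice. For Sult1d1 the closest were Trmu, Rsad2 and Frg2f1 (0.0401 to 0.0508), which follow its Con spread, with Con replicate 3 lowest in each. For Sult1c2 they were Cacnb4, Osbpl5 and F830016B08Rik (0.0601 to 0.0972), which share its low value in HKO replicate 2. The genes nearest to Sult1d1 and Sult1c2 were also picked for likeness, so these shared features follow from the choice.

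**Figure D4:**
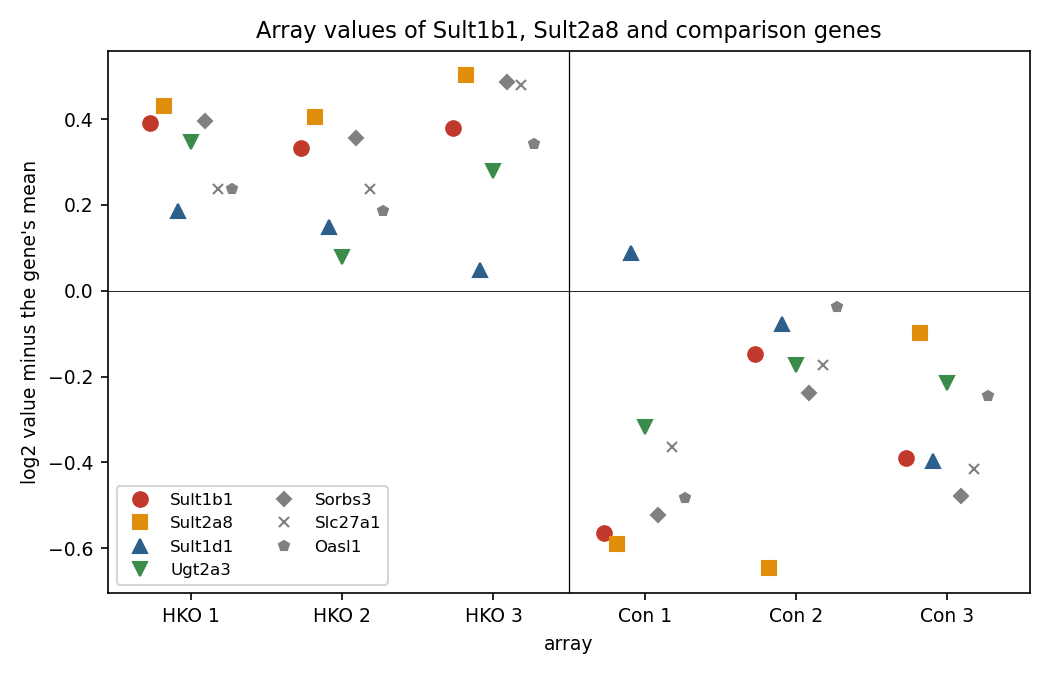
Log2 value minus the gene's own mean over 6 arrays (vertical axis) in each HKO and Con array for Sult1b1, Sult2a8 and the chromosome 5 genes Sult1d1 and Ugt2a3. Grey marks the 3 genes closest to Sult1b1 among those with a mean above the median over genes. Sult1b1, Sult2a8, Ugt2a3 and the grey genes lie above 0 in HKO and below 0 in Con, while Sult1d1 in Con replicate 1 is above 0. The grey genes were picked for likeness to Sult1b1, and Sult2a8 and Ugt2a3 have separate groups, so the shared direction follows from the choice.

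Over 13 cell type marker lists 2 of 105 measured genes passed, beside 0.203% of all genes. Both were lower in HKO, the macrophage integrin Itgax and the fatty acid binding protein Fabp4 of the adipocyte list. Hepatocyte markers had higher means in HKO for 9 of 11 genes, with a median log2 change of 0.04. Their mean levels were separate, at 10.39 to 10.50 in HKO and 10.32 on each Con array. Groups were separate for 3 of the 11, all with HKO above, beside 18.2% of all genes. Stellate cell markers were at mean levels of 6.54 to 6.68 in HKO and 6.88 to 7.14 in Con, with a median log2 change of -0.38. Groups were separate for 8 of 12, 7 with HKO below and 1 with HKO above, beside 18.2% of all genes. Recruited macrophage markers were at 4.02 to 4.34 in HKO and 4.57 to 4.79 in Con, with a median of -0.32. Groups were separate for 3 of 10, all with HKO below. B and plasma cell markers were at 4.20 to 4.35 in HKO and 3.77 to 3.90 in Con, with higher means in HKO for 6 of 6 measured genes and 0 past the threshold. Mean levels were also separate for cholangiocyte markers (3.78 to 3.79 in HKO and 3.89 to 4.03 in Con), neutrophil markers (2.89 to 3.004 in HKO and 3.007 to 3.24 in Con) and adipocyte markers (3.61 to 3.74 in HKO and 3.78 to 3.85 in Con). These lists are largely dim. Means were above the median over genes for 4 of 8 cholangiocyte, 1 of 8 neutrophil and 1 of 5 adipocyte markers. The part of these cell types in the Sult1b1 and Sult2a8 values was not tested. Intestinal epithelium, which is known for Sult1b1, had markers at mean levels of 3.58 to 3.66 in HKO and 3.65 to 3.78 in Con. Of its 8 measured markers 2 had means above the median over genes, 0 passed the threshold, and changes ran from -0.55 to 0.26 (lowest adjusted p 0.0935). Median log2 changes of the remaining lists were -0.12 for cholangiocyte, -0.14 for Kupffer cell, 0.02 for sinusoidal endothelial, -0.27 for T and NK cell, 0.15 for B and plasma cell, -0.20 for neutrophil, -0.09 for kidney and 0.15 for adipocyte markers, and 1 red blood cell gene was measured (0.16).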

How the data were processed

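Per the submitters' processing notes, the authors made the deposited log2 values with RMA in R 3.3.0, 1 value per probe set and array. The array's genome build and any further filter are not given in these sources. Of 41345 probe sets, 23521 have 1 gene in a platform annotation, 1814 several and 16010 none; 23328 were matched by Entrez identifier to RefSeq (GRCm38.p6), which changed 0 symbols. For each gene the brightest probe set (by mean over 6 arrays) was used. The 3 HKO and 3 Con arrays were compared on all 22180 genes by a two-sided test in limma 3.58.1 (R 4.3.3; functions lmFit and eBayes, group as the only term, no filter on low values), adjusted over all genes by the Benjamini-Hochberg method at 0.05; the fit was tested on simulated data. Arrays have no read depth, so their number limits the precision.

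The members and the 24 gene lists were chosen with earlier results of these data known. All 9 members, Snai2 and the other Sult genes are named. In each pathway list up to 4 genes past the threshold are named, or otherwise the 2 with the lowest p. The 3 genes nearest to each of the 3 members with the largest change are also named. They were searched among genes with a mean above the median over genes. Ugt2a3 and Obox2 as neighbours and the 2 marker genes past the threshold were named after their values were seen. Promoter windows are from RefSeq, and matplotlib 3.10.9 (Python 3.11.15) drew the figures. There were 18 alternatives: renormalization, centring, 2 filters, 2 treatments of probe sets, other variance models, array weights, a replicate block, another threshold and each array left out. Replicate numbers are shared between groups, but deviations of same-numbered arrays correlated at only 0.0323, 0.016 and 0.0214 over genes, so the numbers were not taken as pairs.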

Additional observations from a re-analysis of the deposited data

How the results depend on the processing

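The count of sulfotransferases past adjusted p 0.05 was 0 of 9 and became 1, Sult1b1, when genes with a mean at or below the median were left out, when genes at or below the median on all 6 arrays were left out, with a variance trend, and at a threshold of 0.1; it was 0 with each of the 6 arrays left out and under the other alternatives. Over all genes the count of 45 became 138 and 86 under these filters, 215 with the variance trend, 115 at a threshold of 0.1 and 0 when each gene had its own variance only (2632 of 22180 genes had an unadjusted p under 0.05 in limma with shared variance). Dropping 1 array gave 4 to 32: 5 for Con 1, 4 for Con 2, 32 for Con 3, 25 for HKO 1, 6 for HKO 2 and 16 for HKO 3. Over all pathway and marker lists, recomputed by a choice made after seeing the data, the count of 5 became 12, 9, 20, 12 and 0 in the same order, and 0 to 7 on dropping 1 array. With the replicate number as a block, 3 genes passed overall (0 higher, 3 lower), 0 sulfotransferases and 0 list genes, with adjusted p of 0.16 for Sult1b1 and 0.054 for Snai2; the numbers are not known to pair the mice. Snai2 also missed the threshold on dropping Con 1 (0.0758), Con 2 (0.0927) or HKO 2 (0.0621), and with its own variance only (0.234). Sult1b1 and Sult2a8 were higher in HKO under all 17 alternatives tried on single genes. Their groups do not overlap, so leaving out an array could not turn the sign, and this is no measure of robustness. Each passed adjusted p 0.05 under 3 of the 17. In the test with each gene's own variance only, adjusted p was 0.292 for Sult1b1 and 0.318 for Sult2a8. The sign turned for 5 dim or scattered members when 1 array was dropped, and the cause was not tested. Sult3a1 ran from -0.0867 (HKO 2 dropped) to 0.1794 (Con 3 dropped), with -0.02561 and -0.006815 for Con 1 and Con 2. Sult1e1 ran from -0.2966 (HKO 3) to 0.1807 (Con 2), with 0.06628 for HKO 2. Sult1c2 ran from -0.007588 (HKO 3) to 0.4546 (HKO 2), Sult2b1 from -0.4723 (HKO 2) to 0.0677 (HKO 3), and Sult5a1 from -0.06781 (HKO 3) to 0.2169 (HKO 2). Signal near background limits what can be said of 5 of the 9 genes.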
